A study of Homo sapiens with 6 samples.

Results

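The genes described here are 10 feedback and target genes of the ERK pathway, chosen by name: the phosphatase genes DUSP4, DUSP5 and DUSP6, the Sprouty genes SPRY1, SPRY2 and SPRY4, the Sprouty-related genes SPRED1 and SPRED2, and the transcription factor genes ETV4 and ETV5. All 10 were found among the 27238 named rows of the expression table, each under a name that occurs once, and all 10 were among the 11016 rows that passed the filter on low values (a mean of at least 1 FPKM over the 6 libraries). The table holds 6 poly(A) RNA libraries of QBC-939, an established human cell line that the labels call cholangiocarcinoma, a cancer of the bile duct. In 3 libraries the cells had received a scrambled shRNA (control) and in the other 3 an shRNA against BMI1, a subunit of Polycomb repressive complex 1, each for 48 h. The design text describes separate transfections and calls the control RNA an siRNA, whereas the treatment text calls it an shRNA. No source used here says how many sequences against BMI1 were used, and all 6 libraries are from this 1 line.

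ERK is the last kinase of a chain that runs from receptor tyrosine kinases through RAS, RAF and MEK. Active ERK switches on transcription of genes that act back on the chain: DUSP proteins remove the phosphates from ERK itself, and Sprouty and SPRED proteins act upstream, near RAS and RAF. ETV4 and ETV5 are ETS transcription factors of the PEA3 subfamily whose mRNA is raised by the same signal. Several of these genes are repressed by Capicua (CIC), which ERK signalling inactivates, and their mRNAs are often read as a gauge of ERK output in epithelial tumours.

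BMI1 mRNA was lower in all 3 libraries that received its shRNA, at 29.5% of the control mean (limma, adjusted p = 0.00162). The line carried epithelial transcripts: all 10 markers of biliary and ductal epithelium were above 1 FPKM on average, from KRT18 at 840 FPKM to CFTR at 2.01 FPKM in controls, and the biliary keratin KRT7 was low at 2.74 FPKM. Of the intestinal markers, LGALS4 (397 FPKM), KRT20 (155 FPKM) and VIL1 (21.1 FPKM) were present and CDX2 (0.0800 FPKM) and CDH17 (0.0160 FPKM) were near 0. The markers of fibroblasts and endothelium that had a row (3 of 6 and 2 of 4) were also near 0, at a summed level of at most 0.445 and 0.0360 FPKM in any library. Of 5 adipocyte markers 2 had a row, and they summed to 1.57 to 1.98 FPKM in controls and 1.23 to 1.37 FPKM with Bmi1 shRNA. Of 6 leukocyte markers 3 had a row, and their sum of 1428 to 1530 and 1518 to 1579 FPKM was nearly all LYZ (1468 FPKM in controls), with CD68 at 11.5 FPKM in controls and lower with Bmi1 shRNA (log2 fold change -0.56; limma, adjusted p = 0.00198). Summed levels of the intestinal list (7 of 8 markers with a row) were 572 to 575 FPKM in controls and 729 to 754 FPKM with Bmi1 shRNA. Those of the hepatocyte list (5 of 6) were 156 to 166 and 228 to 240 FPKM, and those of the biliary list 1820 to 1980 and 1567 to 1802 FPKM. The part of these shifts in the results below was not tested. FPKM are fragments per kilobase of transcript and per 1000000 mapped fragments, so levels can be compared between genes. In such bulk samples fewer cells expressing a gene and less RNA per cell cannot be told apart.

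Start-site sequence is shown for 2 genes with a motif match upstream of a RefSeq start: DUSP6, which had the largest log2 fold change of the 10 genes, and SPRY1, whose mRNA did not pass the test. Each window of 30 bases is given 5′ to 3′ on the gene's strand, from GRCh38.p14. The DUSP6 window is chr12:89352507-89352536 on the minus strand, within the 5′ UTR of a longer GENCODE transcript. The SPRY1 window is chr4:123398307-123398336 on the plus strand, in no annotated exon. Capitals mark a match to the CIC octamer in DUSP6 and to the ETS core in SPRY1.
DUSP6: cggagaatgtaTCCATTGAgacgctcgctg
SPRY1: tgccctccgcagCCGGAAGggggccgcggg

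The CIC octamer was searched as TCAATGAA, TGAATGAA, TCAATGGA and TGAATGGA on both strands. In the 300-base window, which runs from 250 bases before the start to 50 after it, DUSP6 had 2 matches, both TCAATGGA on the opposite strand. The matches begin 24 bases before the start and 2 bases after it. Of all 35116 RefSeq promoter windows of this length, 3.77% held such an octamer. RefSeq windows were matched for 6 of the 10 genes (DUSP6, SPRY1, SPRY2, SPRY4, SPRED1 and SPRED2), and DUSP6 was the single gene of these with the octamer. The ETS core CCGGAAG (10.3% of all windows) was matched at 1 of the SPRY1 starts, and the AP-1 site TGANTCA (7.71%) 2 times at 1 of the SPRED2 starts. The cyclic AMP element TGACGTCA (1.85%) was matched in none of these windows. The octamer and the other motifs share no bases in the windows of these genes, and a match is a description of letters only.

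In control cells the 10 genes covered a wide range of levels. DUSP6 (24.1 ± 4.66 FPKM), ETV4 (23.8 ± 0.0432), ETV5 (21.2 ± 0.937), SPRED2 (21.0 ± 0.905) and DUSP5 (20.8 ± 1.29) were the most abundant (mean ± SD, n = 3). Within these 5 genes the control ranges of neighbours in the order overlapped, except that ETV4 lay above ETV5 in every control library. SPRY4 followed at 13.6 ± 0.629 FPKM, SPRY2 at 4.99 ± 0.188, SPRED1 at 3.30 ± 0.176 and DUSP4 at 1.62 ± 0.124 FPKM. SPRY1 came last, between 0.949 and 1.55 FPKM, and among these 5 lower genes DUSP4 and SPRY1 were the only neighbours whose ranges overlapped. With Bmi1 shRNA the order changed in 1 place, DUSP6 moving from rank 1 to rank 4.

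**Figure D1:**
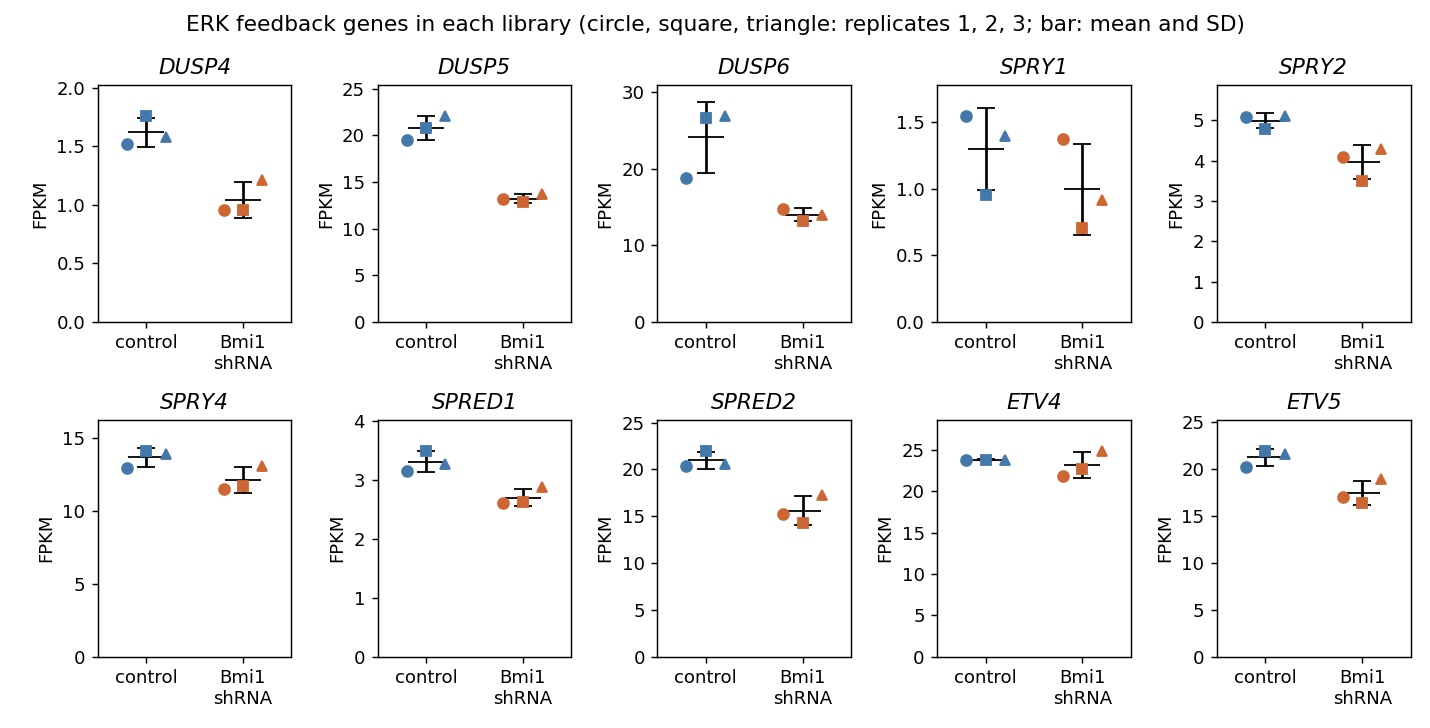
FPKM (vertical axis, from 0) of each of the 10 genes in the 3 control and 3 Bmi1 shRNA libraries, with symbols for the replicate number and a bar for mean and SD (n = 3). The groups do not overlap for 7 genes and overlap for SPRY1, SPRY4 and ETV4.

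With Bmi1 shRNA the mRNA of 7 of the 10 genes fell and that of none rose. The genes that fell were DUSP4, DUSP5, DUSP6, SPRY2, SPRED1, SPRED2 and ETV5, and SPRY1, SPRY4 and ETV4 did not pass (test by limma on log2(FPKM + 1), with p adjusted by Benjamini-Hochberg and a threshold of 0.05). Over all 11016 tested genes 28.5% were called lower and 28.6% higher, 57.1% in all, so a call in this comparison is common. The groups did not overlap, with the Bmi1 shRNA libraries lower, for the same 7 genes, against 33.1% of all tested genes, and no member lay higher without overlap, against 32.3%. All 10 log2 fold changes were below 0, as were 51.3% of those of all tested genes, but 9 were with upper quartile scaling and 8 or 7 once a trend with GC content was taken out. The median over the 10 genes was -0.27, against -0.02 over all tested genes. Leaving out 1 library at a time, the number called lower ran from 4 (without control replicate 3) to 8 (without Bmi1 shRNA replicate 3), and it was 4 of 6 when genes under a mean of 5 FPKM were dropped.

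All 3 phosphatase genes fell, and they were left with the smallest percent of control among the 10 genes. DUSP6, a cytoplasmic phosphatase with high selectivity for ERK, measured 18.7, 26.7 and 26.9 FPKM with scrambled shRNA and 14.8, 13.2 and 14.0 FPKM with Bmi1 shRNA. Control replicate 1 was well below the other controls but above every Bmi1 shRNA library. The mean with Bmi1 shRNA was 58.0% of control, its log2 fold change -0.73 ± 0.14 (± is the standard error for log2 fold changes and the SD over 3 libraries for FPKM, here and below; limma, adjusted p = 0.00552), and 2.61% of tested genes had a lower log2 fold change. DUSP6 lies on chromosome 12 from 89347232 to 89353271 (GRCh38, minus strand). Its exons share 1875 bases with the annotated antisense gene AC024909.2, and no source used here says whether reads were counted by strand, so reads of the 2 genes cannot be told apart.

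DUSP5, a nuclear phosphatase that dephosphorylates and anchors ERK, measured 19.5, 20.8 and 22.1 FPKM in controls and 13.1, 12.8 and 13.7 FPKM with Bmi1 shRNA. The 2 groups were far apart relative to their spread, and the gene had the smallest adjusted p of the 10. Its log2 fold change was -0.62 ± 0.064 (limma, adjusted p = 0.000632), a fall to 63.6% of control. DUSP5 lies on chromosome 10 from 110497838 to 110511544 (plus strand). DUSP4, a nuclear phosphatase of ERK and other MAP kinases on chromosome 8 (29333064 to 29350668, minus strand), was a minor transcript at 1.52, 1.76 and 1.58 FPKM in controls and 0.957, 0.952 and 1.21 FPKM with Bmi1 shRNA. Its mean fell to 64.2% of control, and its log2 fold change of -0.36 ± 0.079 understates that fall because of the pseudocount of 1 (limma, adjusted p = 0.00846). DUSP4, DUSP5 and DUSP6 kept their calls without any 1 library.

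Summed over the 3 phosphatase genes, the level was 39.8, 49.3 and 50.6 FPKM in controls and 28.9, 27.0 and 28.9 FPKM with Bmi1 shRNA, 60.7% of control. The sum of SPRED1 and SPRED2 was at 75.2% of control, that of the 3 Sprouty genes at 85.5% and that of ETV4 and ETV5 at 90.1%. Within a library scaling cancels in a ratio of sums, though a trend with GC content need not. The ratio of the DUSP sum to the ETV sum was 0.907, 1.08 and 1.12 in controls and 0.744, 0.692 and 0.661 with Bmi1 shRNA. The ratio was thus lower in 3 of 3 Bmi1 shRNA libraries than in any control. It sets the family with the lowest percent of control against the one with the highest. These sums were formed by gene family and carry no test.

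Among the Sprouty genes, which encode membrane-associated inhibitors of receptor signalling to RAS and RAF, SPRY2 fell. SPRY2 (chromosome 13, 80335976 to 80340951, minus strand) measured 5.09, 4.77 and 5.11 FPKM in controls and 4.09, 3.49 and 4.30 FPKM with Bmi1 shRNA, a log2 fold change of -0.27 ± 0.078 (limma, adjusted p = 0.0234). Its groups did not overlap, though the gap was small. The call ended without control replicate 1 (limma, adjusted p = 0.0647) or control replicate 3 (0.0708) and with no filter on low values (0.0517).

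SPRY4 (chromosome 5, 142310427 to 142326455, minus strand), the most abundant of the Sprouty genes measured here, had 12.9, 14.1 and 13.9 FPKM in controls and 11.5, 11.7 and 13.1 FPKM with Bmi1 shRNA. The groups overlapped by Bmi1 shRNA replicate 3, which lay above control replicate 1. The log2 fold change was -0.16 (95% interval -0.33 to 0.00468; limma, adjusted p = 0.0864), and without Bmi1 shRNA replicate 3 it was -0.22 and called (limma, adjusted p = 0.0319). SPRY4 was also called lower with libraries scaled to one total (limma, adjusted p = 0.0351) and with library weights (0.0434). SPRY1 (chromosome 4, 123396795 to 123403760, plus strand) measured 1.55, 0.949 and 1.40 FPKM in controls and 1.37, 0.705 and 0.912 FPKM with Bmi1 shRNA. Its libraries were scattered within both groups, and the interval of its log2 fold change, -0.58 to 0.16 around -0.21, holds both a fall as large as that of SPRED2 and no change (limma, adjusted p = 0.283).

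Both SPRED genes, whose proteins bring the RAS GTPase-activating protein NF1 to the membrane, fell. SPRED2 (chromosome 2, 65310851 to 65432637, minus strand) measured 20.3, 22.0 and 20.6 FPKM in controls and 15.2, 14.2 and 17.3 FPKM with Bmi1 shRNA. The groups were clearly apart, at -0.41 ± 0.081 on the log2 scale (limma, adjusted p = 0.00564), and the call held without any 1 library. SPRED1 (chromosome 15, 38252326 to 38357249, plus strand) was less abundant, at 3.14, 3.49 and 3.27 FPKM in controls and 2.60, 2.62 and 2.87 FPKM with Bmi1 shRNA. It fell by 0.22 ± 0.064 on the log2 scale (limma, adjusted p = 0.0254). Its call ended without control replicate 2 (limma, adjusted p = 0.0842), control replicate 3 (0.0645), Bmi1 shRNA replicate 1 (0.0781) or Bmi1 shRNA replicate 2 (0.0674), and with no filter on low values (0.0509). NF1 itself, which gives SPRED proteins their effect on RAS, was at 2.62 FPKM in controls and 2.75 FPKM with Bmi1 shRNA (limma, adjusted p = 0.854). Its libraries were scattered, from 1.92 to 3.11 FPKM in controls and from 1.97 to 3.55 FPKM with Bmi1 shRNA. The 95% interval of its log2 fold change, -0.41 to 0.50, holds both a fall and a rise.

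Of the PEA3 factors, ETV5 fell and ETV4 did not pass. ETV5 (chromosome 3, 186046308 to 186110318, minus strand) measured 20.1, 21.9 and 21.5 FPKM in controls and 17.0, 16.3 and 18.9 FPKM with Bmi1 shRNA, a fall by 0.27 ± 0.071 on the log2 scale (limma, adjusted p = 0.0168). Its call ended without control replicate 2 (limma, adjusted p = 0.0567), control replicate 3 (0.0554), Bmi1 shRNA replicate 1 (0.0518) or Bmi1 shRNA replicate 2 (0.0507). ETV4 (chromosome 17, 43527844 to 43579620, minus strand) was nearly constant in controls at 23.7, 23.8 and 23.8 FPKM and spread around that level with Bmi1 shRNA at 21.9, 22.6 and 24.9 FPKM. The interval of its log2 fold change ran from -0.19 to 0.11 around -0.04 (limma, adjusted p = 0.600), which leaves out a fall of the size measured for the DUSP genes. With Bmi1 shRNA ETV4 was the most abundant of the 10 transcripts. Exons of ETV4 share 68 bases with those of DHX8 and exons of ETV5 share 164 bases with those of DGKG. The difference between ETV4 and ETV5 was not tested.

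The direction of change over all genes went with the GC content of the transcript. When tested genes were put into 10 equal groups by GC content, the group lowest in GC (at most 39.5%) had a median log2 fold change of 0.48, and the group from 50.4% to 53.3% one of -0.22. The 10 genes had GC contents from 38.9% (SPRED1) to 60.8% (ETV4), with a median of 48.6% against 50.4% over all tested genes. SPRED1 was in that lowest group. DUSP4 and SPRY4 stood where the median was -0.22, DUSP5 where it was -0.21 and ETV4 where it was -0.23.

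**Figure D2:**
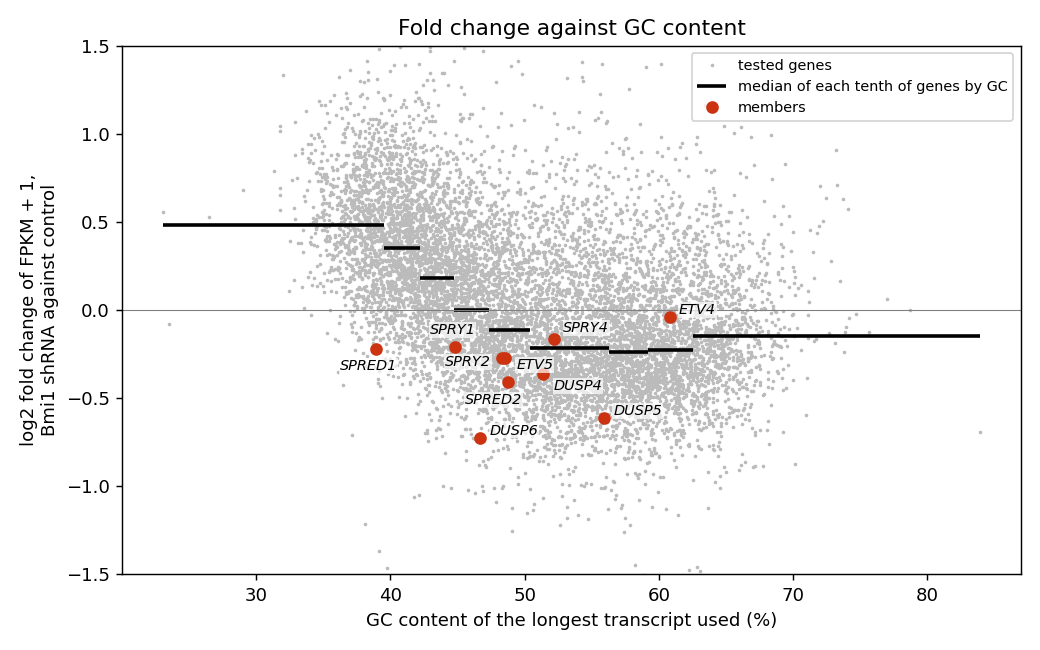
Log2 fold change of FPKM + 1 (vertical axis) against GC content in percent (horizontal axis) for tested genes with a known transcript, with bars for the median of each of 10 GC groups and red points for the 10 genes; 34 genes beyond ±1.5 are outside the axis. DUSP6, DUSP5 and SPRED1 lie well below the median of their group, and ETV4 lies above it.

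The fits were therefore repeated with the trend with GC content and transcript length removed from each library, with GC content and length read either from the longest coding transcript or as medians over all transcripts of a gene. DUSP5 and DUSP6 fell in both versions. The log2 fold change of DUSP6 was -0.61 and -0.62 (limma, adjusted p = 0.0158 and 0.0109), and that of DUSP5 was -0.38 and -0.39 (0.00222 and 0.00188). SPRED1 fell more than in the deposited values, by 0.50 and 0.43 on the log2 scale (limma, adjusted p = 0.00123 and 0.00276). SPRED2 fell by 0.20 and 0.29 (limma, adjusted p = 0.0383 and 0.0176).

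Of the other genes, 5 had a call in some of these fits and not in others. ETV4 was called higher in both versions, at 0.18 and 0.18 (limma, adjusted p = 0.0256 and 0.0263), and SPRY4 was called higher with the longest coding transcript (0.17; 0.0343) and not with medians (0.042; 0.554). DUSP4 was no longer called, at -0.020 and 0.019 (limma, adjusted p = 0.788 and 0.805). SPRY2 (log2 fold change -0.16; limma, adjusted p = 0.118) and ETV5 (-0.071; 0.313) were not called with the longest coding transcript and were called lower with medians (-0.21 and -0.29; 0.0446 and 0.0143). SPRY1 was not called in either version. With the replicate number as a block in the fit for the longest coding transcript, the higher calls of ETV4 (limma, adjusted p = 0.0753) and SPRY4 (0.0655) and the lower call of SPRED2 (0.0871) ended, and SPRY1 was called lower (-0.32; 0.0381). In all, 4 of the 10 genes were lower and 2 higher with the longest coding transcript, where 20.5% and 19.1% of 10225 genes were called (39.7% in all), and 6 were lower and 1 higher with medians, where 24.9% and 21.9% were (46.8% in all). Real changes that run with GC content or length are taken out by this step too.

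**Figure D3:**
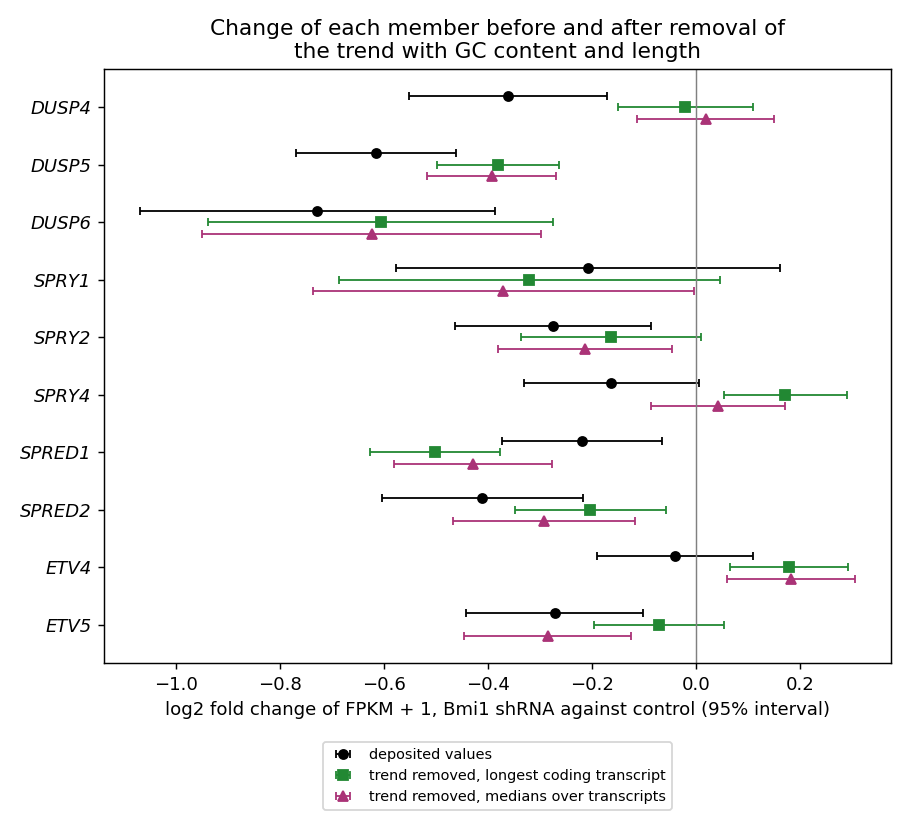
Log2 fold change of FPKM + 1, Bmi1 shRNA against control (horizontal axis), of each of the 10 genes with its 95% interval from limma, for the deposited values and for both versions of the fit without the trend in GC content and length. The intervals of DUSP5, DUSP6, SPRED1 and SPRED2 lie below 0 in all 3 fits, and that of ETV4 lies above 0 in both fits without the trend.

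The genes whose levels ran most like those of DUSP6, the called gene with the largest change, were SCAMP3, a membrane trafficking protein (Pearson r = 0.998), SLPI, a secreted protease inhibitor (0.996), and ZSWIM8, a substrate receptor of a ubiquitin ligase (0.996). These are correlations of log2(FPKM + 1) over 6 libraries that share the group difference and the low control replicate 1. The sizes differed: SLPI went from 7.23 to 4.85 FPKM and ZSWIM8 from 5.11 to 3.42 FPKM, whereas SCAMP3 went from 47.3 to 40.7 FPKM (log2 fold change -0.21). ZSWIM8 was not called with the trend removed for the longest coding transcript (limma, adjusted p = 0.641). SCAMP3 was not called with it removed for medians (0.586), nor without control replicate 2 (0.0598), control replicate 3 (0.0663) or Bmi1 shRNA replicate 2 (0.0518).

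Other genes of the pathway are given by list, and their counts stand beside the shares over all tested genes of 28.5% lower and 28.6% higher (with the trend removed, 20.5% and 19.1%, or 24.9% and 21.9% with medians). Of 10 further DUSP, SPRY, SPRED and PEA3 genes, 5 were tested, of which 3 fell, none rose and 2 did not pass. DUSP8, a phosphatase of stress-activated kinases, fell from 8.62 ± 0.629 to 5.10 ± 0.344 FPKM and DUSP16, another of that kind, from 7.17 ± 0.510 to 5.16 ± 0.214 FPKM (SD, n = 3 each). DUSP7, a cytoplasmic ERK phosphatase close to DUSP6, fell from 6.49 ± 0.358 to 4.24 ± 0.286 FPKM, but was not called with the trend removed for medians (limma, adjusted p = 0.0981). DUSP2, a nuclear ERK phosphatase, had 8.64 and 7.65 FPKM and did not pass (limma, adjusted p = 0.0730) except with libraries scaled to one total (0.0195). Over the list the median log2 fold change was -0.41, and with the trend removed it was -0.22 with 3 genes lower for the longest coding transcript and -0.15 with 2 lower for medians.

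In the chain that carries the signal to ERK, calls lay on both sides, as over all tested genes. Of 21 genes from adaptors to ERK and its kinase targets, 16 were tested, of which 5 rose and 6 fell, with a median log2 fold change of 0.01. These counts are near the shares over all tested genes (28.6% higher and 28.5% lower). SHOC2, a scaffold that frees RAF for activation, rose from 1.66 ± 0.153 to 3.63 ± 0.188 FPKM, the GTPase gene NRAS from 6.16 ± 0.384 to 9.78 ± 0.373 FPKM and RPS6KA3, a kinase activated by ERK, from 4.77 ± 0.314 to 7.97 ± 0.496 FPKM (SD, n = 3 each). SHC1, the adaptor between receptors and RAS, fell from 21.4 ± 0.714 to 12.7 ± 1.03 FPKM. Without the trend, 5 were higher and 4 lower with the longest coding transcript and 3 and 4 with medians, where SHOC2 was not called (limma, adjusted p = 0.0556).

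At the head of the chain, of 9 tested receptor tyrosine kinase genes 5 fell and none rose, at a median log2 fold change of -0.36. The most abundant receptor genes, FGFR4 and MET, were not called. FGFR4 had 17.3 FPKM in controls and 15.6 FPKM with Bmi1 shRNA (limma, adjusted p = 0.246). MET had 15.2 and 18.5 FPKM (0.104), with every Bmi1 shRNA library above every control. EGFR fell from 2.55 ± 0.206 to 1.33 ± 0.216 FPKM and its partner ERBB2 from 6.36 ± 0.337 to 3.93 ± 0.453 FPKM (SD, n = 3 each). ERBB3 (9.93 and 7.03 FPKM) and the insulin-like growth factor receptor IGF1R (4.15 and 3.00 FPKM) also fell, but neither was called with the trend removed for the longest coding transcript, and ERBB3 was not called without control replicate 2 (limma, adjusted p = 0.0552). With the trend removed 2 receptor genes were lower with the longest coding transcript and 4 with medians, and the median log2 fold change of the list was -0.017 and -0.079. The first of these counts is near the share over all genes. Of 7 tested ligand genes with a name that occurs once, 5 fell and 1 rose, at a median of -0.29. IGF2, whose name occurs more than once, was left out of these counts. AREG, by far the most abundant of the 7, had 277 and 274 FPKM and was not called (limma, adjusted p = 0.777). With the trend removed AREG was called lower in both versions, at -0.43 and -0.40 (0.000673 and 0.000957). PDGFB fell from 21.5 ± 0.944 to 12.6 ± 0.565 FPKM, TGFA, a ligand of EGFR, from 14.4 ± 0.0250 to 10.3 ± 0.454 FPKM and PDGFA from 3.17 ± 0.0396 to 2.42 ± 0.277 FPKM. PDGFA lost its call in both versions without the trend (limma, adjusted p = 0.264 and 0.244). BTC, another EGFR ligand, rose from 2.31 ± 0.305 to 3.00 ± 0.144 FPKM. BTC lost its call without control replicate 2 (limma, adjusted p = 0.0856), control replicate 3 (0.0880), Bmi1 shRNA replicate 1 (0.0838) or Bmi1 shRNA replicate 3 (0.0637), with no filter (0.0666) and with one total for all libraries (0.0615), and its sign turned with the trend removed, where 4 ligand genes were lower and none higher in both versions, at medians of -0.39 and -0.28. The count of ligand genes called lower was 3 if either control replicate 2, control replicate 3, Bmi1 shRNA replicate 2 or Bmi1 shRNA replicate 3 was left out.

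Other brakes on the chain gave 5 falls and 2 rises among 14 tested genes, at a median log2 fold change of -0.18. ERRFI1, a feedback inhibitor of EGFR, fell from 25.8 ± 1.69 to 15.2 ± 0.870 FPKM (SD, n = 3 each). With the trend removed it fell by 0.90 on the log2 scale for the longest coding transcript (limma, adjusted p = 0.000597) and by 0.60 for medians (0.00122). LRIG1, which lowers the amount of ERBB receptors, fell from 3.14 ± 0.137 to 1.98 ± 0.150 FPKM and was not called with the version for the longest coding transcript (limma, adjusted p = 0.152). PTPN2, a tyrosine phosphatase, rose from 2.28 ± 0.319 to 3.91 ± 0.262 FPKM and PPP2CA, a catalytic subunit of phosphatase 2A, from 17.6 ± 0.382 to 24.0 ± 1.69 FPKM, and neither was called with that version (0.0969 and 0.0582). With medians PTPN2 was called higher (0.0208), and the sign of PPP2CA turned (-0.16; 0.0632). Over the list, none were higher and 4 lower with the longest coding transcript, and 2 and 4 with medians, at list medians of -0.081 and -0.11.

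Of 14 other tested transcripts that ERK induces in many cells, 8 fell, none rose and 6 did not pass, with a median log2 fold change of -0.46. EPHA2, an Eph receptor, fell from 34.9 ± 0.848 to 17.7 ± 1.70 FPKM, CCND1, which encodes cyclin D1, from 20.2 ± 0.425 to 10.9 ± 0.314 FPKM, EGR1, an immediate early factor, from 9.98 ± 0.541 to 6.32 ± 0.213 FPKM and JUNB from 75.7 ± 5.25 to 52.5 ± 2.02 FPKM (SD, n = 3 each). These 4 were named for the smallest p of the list (limma, adjusted p from 0.000247 to 0.00126), so small p and groups apart come with that choice. Their groups did not overlap, as for 33.1% of all tested genes that lay lower. All 4 were also called lower with the trend removed for the longest coding transcript. With that step 7 of the list were lower in both versions, and none were higher with the longest coding transcript against 2 with medians, at list medians of -0.33 and -0.28. IER2, whose libraries lay far apart and are given below, was among these 2. In the main fit its log2 fold change was 2.05 and it did not pass (limma, adjusted p = 0.0605).

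Transcription factors that act on such promoters were tested too. Of 13 tested ETS factor genes and CIC partners, 5 fell and 3 rose. The median log2 fold change of this list was -0.17, and with the trend removed it turned to 0.055 for the longest coding transcript and was -0.23 for medians. CIC, whose octamer the DUSP6 window holds, measured 7.50, 8.82 and 8.01 FPKM in controls and 5.02, 4.34 and 5.70 FPKM with Bmi1 shRNA, or -0.60 ± 0.10 on the log2 scale (limma, adjusted p = 0.0031). ATXN1L, which binds and stabilises CIC, fell from 8.06 ± 0.242 to 4.67 ± 0.413 FPKM (SD, n = 3 each). With the trend removed for the longest coding transcript the log2 fold changes of CIC and ATXN1L were -0.20 and -0.30 (limma, adjusted p = 0.0299 and 0.00366), and the call of CIC ended when the replicate number was added as a block (0.0842). With medians the log2 fold changes of CIC and ATXN1L were -0.50 and -0.74 (limma, adjusted p = 0.00455 and 0.000683). ETS2 fell from 126 ± 4.86 to 72.5 ± 3.02 FPKM and ELK3 from 2.54 ± 0.0471 to 1.70 ± 0.0654 FPKM. GABPA rose from 0.824 ± 0.102 to 1.64 ± 0.107 FPKM but lost its call in both versions without the trend (limma, adjusted p = 0.293 and 0.103), where 1 gene of the list was higher in each version and 5 and 7 were lower. GABPA, counted in the 3 rises, had a control mean under 1 FPKM and passed the filter only through the Bmi1 shRNA group.

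**Figure D4:**
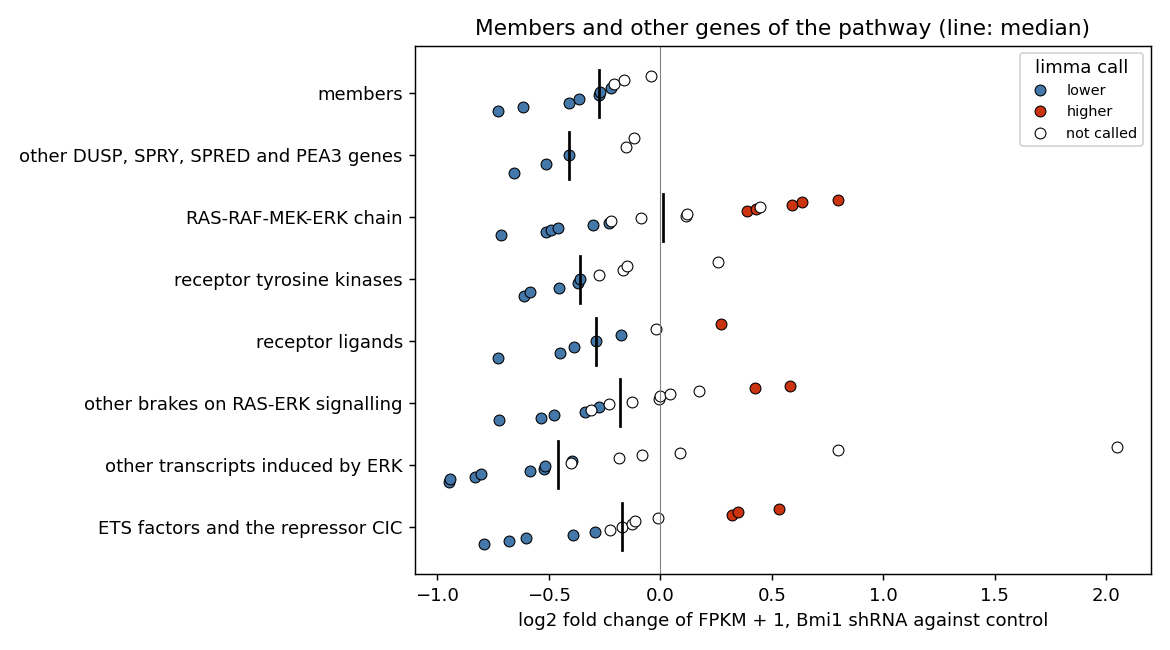
Log2 fold change of FPKM + 1, Bmi1 shRNA against control (horizontal axis), of each tested gene of the 10 described here (members) and of the 7 other pathway lists, with fill for the limma call and a line for each median. IGF2, whose name occurs more than once, is not shown. No member and no gene of the list of other transcripts induced by ERK is called higher. The RAS-RAF-MEK-ERK chain has calls on both sides of 0, as all tested genes do.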

How the data were processed

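Poly(A) RNA was sequenced from 3 control and 3 Bmi1 shRNA libraries, per the labels' protocols, which also name an adipose type that none of these samples is. The authors deposited FPKM per gene. Tools named in the submitters' processing notes are HISAT2 2.0, StringTie 1.3.0 and Bowtie 0.12.2, with no roles, and the build named there is mm8, a mouse build, though the organism is human. The columns, marked Sc and Sh with a number, were taken as scrambled and Bmi1 shRNA replicates. The depth is unknown: low values shared no step of whole reads (at most 1.37% of low rows stood at the commonest ratio to control replicate 1), so no counting interval could be given. FPKM summed to 332910 to 360371 per library.

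limma 3.58.1 (R 4.3.3) was run on log2(FPKM + 1) over 11016 rows averaging 1 FPKM or more, with group as the sole term, a variance trend and Benjamini-Hochberg adjustment over all of them (called at 0.05). Fold changes understate the change of low genes. The p-values set the group difference against the spread between these libraries, which limma moderates with the variance trend over all tested genes. The 10 genes, the lists and the markers were chosen with earlier results of these data known. Named in the text are the 10 genes, BMI1, up to 4 genes with the smallest p per list, the 3 genes most like DUSP6, markers, and genes a result turns on (NF1 and CIC). Also named are the most abundant receptor and ligand genes (FGFR4, MET and AREG) and genes whose replicates lay far apart. GC content and length came from GENCODE 29 (GRCh38; known for 92.8% of tested rows), as did gene positions; their trend was removed with natural splines of 5 degrees of freedom each. Promoters came from RefSeq (GRCh38.p14). The main fit and the trend removal for the longest coding transcript were tested on simulated data, and the other steps were not. Alternatives were another pseudocount (0.1), other filters, 3 scalings, no variance trend, weighted libraries, a block for the replicate number and each library left out.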

Additional observations from a re-analysis of the deposited data

How the results depend on the processing

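Every fit here rests on 3 libraries a group of unknown depth, and low genes such as SPRY1 and DUSP4 are the least certain. The 10 genes had 176 log2 fold changes under the alternatives, of which 144 kept direction and side of the threshold. With the sign kept, 20 lost a call and 4 gained one, and 8 changed sign. Among those that changed sign, ETV4 (both versions without the trend) and SPRY4 (longest coding transcript) were called higher, and DUSP4 (medians) lost its call. DUSP5 and DUSP6 were called lower in all 18 alternatives, SPRED2 in 17 of 18, and ETV4 in none. The number of the 10 genes called lower was 7, and 4 with a mean of at least 5 FPKM, 4 after removal of the GC and length trend for the longest coding transcript, and 4 with that step and the replicate block together; it ran from 4 to 8 with 1 library left out. The number called higher was 0, and 2 and 1 with the trend removed for the longest coding transcript and for medians. Signs turned for DUSP4 (0.019, medians), SPRY4 (0.17 for the longest coding transcript, also with the block, and 0.042 for medians), ETV4 (0.18 for the longest coding transcript, also with the block, 0.18 for medians, and 0.00115 with upper quartile scaling), IGF1R (0.054 for the longest coding transcript, also with the block), BTC (-0.12 for the longest coding transcript, also with the block, and -0.15 for medians) and PPP2CA (-0.16, medians). The cause of these changes was not tested.

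With the replicate block 6 of the 10 genes were called lower, SPRED1 being lost (limma, adjusted p = 0.0651), and over all tested genes 2870 were higher and 2788 lower, against 3152 and 3143. Of 252 counts over the pathway lists under the alternatives, 39 moved by over 1.5 times or away from 0, and the other 213 stayed within 1.5 times, which does not mean equal. Same-numbered libraries did not deviate together (r = 0.00374, -0.0791 and -0.0234 across genes), and no library correlated best with its own number, so the number is not taken to pair samples.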

Other observations

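Replicates of some pathway genes that were not called in the main fit lay far apart, and such genes, chosen after their values were seen, are given here. IER2, an immediate early gene, measured 1.79, 3.40 and 3.03 FPKM in controls and 27.3, 2.99 and 30.1 FPKM with Bmi1 shRNA (limma, adjusted p = 0.0605). Without Bmi1 shRNA replicate 2 its log2 fold change was 3.01 and it was called (limma, adjusted p = 0.00166). With all 6 libraries IER2 was also called higher with library weights (2.11, limma, adjusted p = 0.0397) and with the trend removed for medians (2.30, limma, adjusted p = 0.0462). GRB2, the adaptor that links receptors to SOS and RAS, measured 13.5, 15.8 and 14.0 FPKM in controls and 28.4, 26.1 and 10.7 FPKM with Bmi1 shRNA (limma, adjusted p = 0.297). Without Bmi1 shRNA replicate 3 it was called, at 0.87 (limma, adjusted p = 0.00186). CBL, a ubiquitin ligase for activated receptors, measured 0.478, 3.25 and 3.04 FPKM in controls and 2.17, 1.81 and 0.487 FPKM with Bmi1 shRNA (limma, adjusted p = 0.600). MYC measured 17.4, 1.89 and 1.57 FPKM in controls and 23.1, 10.5 and 1.59 FPKM with Bmi1 shRNA (limma, adjusted p = 0.537). Bmi1 shRNA replicate 3 was the lowest of its group for GRB2, CBL and MYC, and Bmi1 shRNA replicate 2 for IER2. Control replicate 1 was the lowest control for IER2, GRB2 and CBL but the highest for MYC.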
